A study of Bos taurus with 4 samples.

Results

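The genes described here are BCL2 family members and inhibitor of apoptosis proteins: BAX, BAK1, BAD, BID, BCL2L11, BCL2L1, MCL1, BIRC2, BIRC3 and XIAP. They were represented by every bovine probe of the array whose platform annotation carries 1 of these 10 symbols, which gave 13 of 43794 probes, for 9 of the 10 genes (15216 genes were named on the array in all). BCL2L1 and MCL1 had 3 probes each and the other 7 genes 1 each. No probe was annotated as BIRC2, and the reference gene table lists BIRC2 both as a gene and as an older name of its neighbour BIRC3, so that BIRC2 has no value of its own here and the probe annotated as BIRC3 may read either gene.

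Transcripts were measured in pooled early Holstein (Bos taurus) blastocysts made in vitro and collected 168 hours after fertilization. On each of 4 arrays, read in 2 colours, the pools of 1 heifer were hybridised together, from oocytes collected at 14 months of age and from oocytes of the same animal collected at 11 months. The 14-month pool was labelled with Cy3 and the 11-month pool with Cy5 in replicates 1 and 2, and the dyes were exchanged in replicates 3 and 4. At both ages the donors received progesterone and 6 injections of 30 mg FSH, and semen came from adult bulls. All pools share this protocol, in vitro culture and linear amplification of the RNA. The sources used here do not say how many embryos made up a pool, and the number of earlier stimulations differs between the ages. By the design text, 10 animals underwent 3 collections each, the first at 8 months, so that the 14-month pool followed 1 stimulation more than the 11-month pool, and donor age, collection time and earlier stimulations cannot be told apart. The comparison asked whether these transcripts differ between embryos of peri-pubertal donors at the 2 ages.

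Proteins of the BCL2 family decide whether the outer membrane of the mitochondrion is breached, the step that commits most vertebrate cells to apoptosis. BAX and BAK1 form the pore, BCL2L1 (BCL-XL) and MCL1 hold them inactive, and the BH3-only proteins BID, BCL2L11 (BIM) and BAD promote pore formation, directly or by occupying the protective members. Once cytochrome c is released, caspases are activated, and XIAP restrains them by direct binding, while BIRC2 and BIRC3 (cIAP1 and cIAP2) are ubiquitin ligases that act chiefly in tumour necrosis factor receptor signalling. Some cells of the mammalian blastocyst die by apoptosis, mostly in the inner cell mass, and the balance of BAX against protective members is often used as a marker of bovine embryo quality.

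None of the 13 probes differed between the ages in limma's moderated test. Their mean log2 ratios of 14 over 11 months lay between -0.28 and 0.20, with SDs over the 4 heifers of 0.05 to 0.36, and the smallest Benjamini-Hochberg adjusted p was 0.654. Of the 13 probes, 0 had an unadjusted p under 0.05, where 9.2% of all 36447 tested probes did, and 0 passed an adjusted p of 0.05, as did 0% of all probes. The mean ratio reached 1.5-fold for 0 of 13 probes, against 2% of all probes, and 1 of 13, that of BIRC3, had the same sign in all 4 heifers, against 16.7% of all probes. The levels of the 2 ages overlapped for all 13 member probes and were apart for 3.03% of all probes. The 95% intervals of the 13 means, which treat each probe alone, reached from 1.56-fold lower to 1.42-fold higher in the 14-month pools. The median SD over heifers was 0.26 for the member probes and 0.27 for all tested probes, and the median size of the mean ratio was 0.07 against 0.12.

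**Figure D1:**
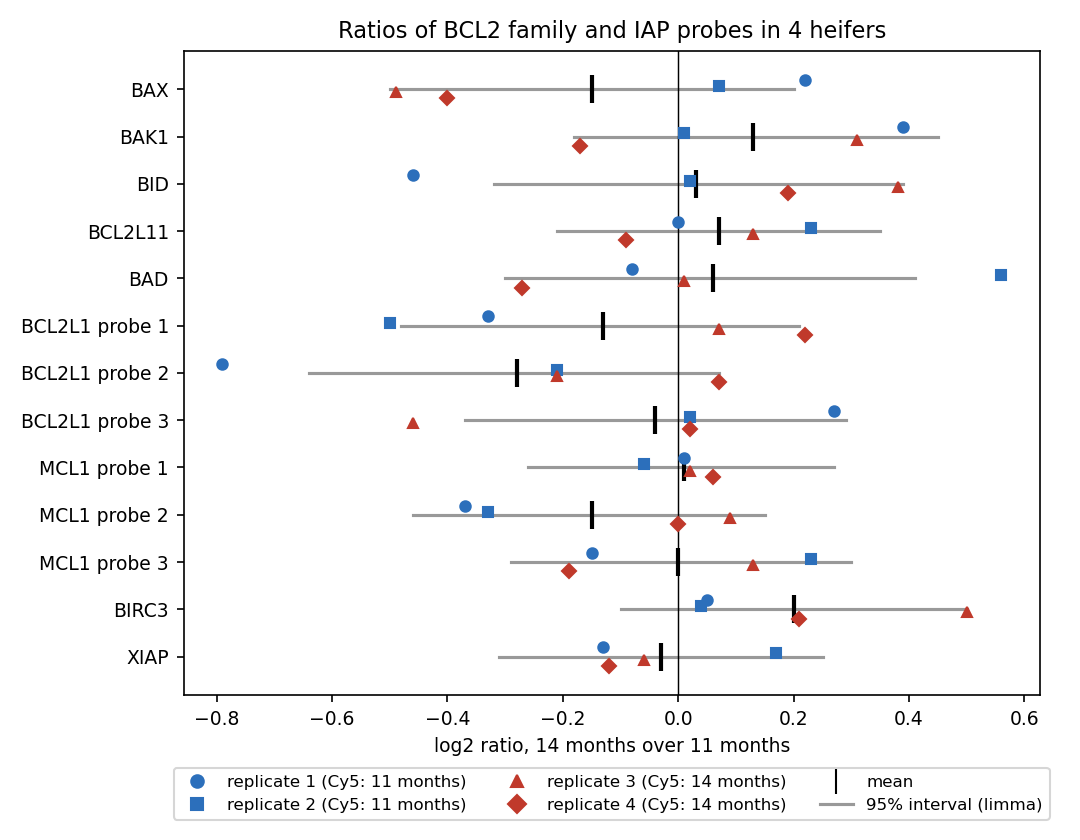
Log2 ratio of 14 over 11 months (x axis) for the 13 member probes (rows, several probes of a gene from brightest to dimmest). Each symbol is 1 heifer, colour gives the age carried by Cy5, the black bar is the mean and the grey line limma's 95% interval. Every interval includes 0, and the 4 BIRC3 points alone lie on 1 side of it.

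Levels are given below as normalized log2 intensities, which are read within a probe and not between probes. Ratios are those deposited by the authors, turned to 14 over 11 months. They differ from the difference of the levels because the levels were normalized anew from the scanner files. The gap can exceed the size of a mean ratio: for BAX in replicate 4 the deposited ratio was -0.40 and the scanner ratio -0.27. Deposited ratios had a slope of 1.39 on scanner ratios in replicate 4 and of 1.07 in replicate 1. All 13 probes passed the filter on dim signals, as did 83.2% of all probes, and 11 lay above the negative controls in both pools of all 4 heifers, against 56.7% of all tested probes. The exceptions were BAK1, above the controls in 3 of 4 pools at each age, and BAD, above them in 1 of 4 at each age.

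Of the pore formers, BAX varied most between pools. Its level was 8.60, 8.17, 7.41 and 7.76 in replicates 1 to 4 at 14 months, against 8.34, 8.02, 7.86 and 8.03 at 11 months. The 14-month levels included both the highest and the lowest of the 8, with an SD of 0.51 at 14 months and 0.20 at 11 months. The log2 ratios were 0.22, 0.07, -0.49 and -0.40 in replicates 1 to 4. The mean was -0.15 ± 0.35 (SD, n = 4), or 0.901-fold, with a 95% interval of -0.50 to 0.20 and an adjusted p of 0.842 in limma. The sign was thus the same within each dye orientation and opposite between them. BAK1, the pore former that resides on mitochondria already in healthy cells, had levels of 6.71, 7.11, 6.96 and 7.07 at 14 months, against 6.35, 7.07, 6.71 and 7.13 at 11 months. Replicate 1 was lowest at both ages, and its 2 pools and those of replicate 3 made up most of the difference. The ratios were 0.39, 0.01, 0.31 and -0.17, with a mean of 0.13 ± 0.26 (SD, n = 4) and a limma adjusted p of 0.846.

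The BH3-only members had mean ratios of 0.03 to 0.07, each smaller than its spread. BID, which caspase-8 cleaves to link death receptors to the mitochondrion, had levels of 9.71, 9.54, 10.18 and 9.75 in the 14-month pools and 10.09, 9.46, 9.88 and 9.57 in the 11-month pools. Its ratios were -0.46, 0.02, 0.38 and 0.19, so that replicate 1 stood on the other side of 0 from the remaining 3. Their mean was 0.03 ± 0.36 (SD, n = 4), and the limma adjusted p was 0.976. BCL2L11, which binds all protective BCL2 proteins, was at 6.78, 7.16, 7.0 and 6.98 at 14 months, against 6.78, 6.92, 6.87 and 7.0 at 11 months. The 11-month levels lay within the range of the 14-month levels, with a mean ratio of 0.07 ± 0.14 (SD, n = 4) and a limma adjusted p of 0.92. BAD, a sensitizer controlled by phosphorylation and binding to 14-3-3 proteins, was at 6.48, 6.88, 6.57 and 6.58, against 6.55, 6.49, 6.56 and 6.69 at 11 months. These levels are near those of the negative controls, and the ratio of 0.06 ± 0.35 (SD, n = 4; limma adjusted p 0.955) rests on replicate 2, whose value was 0.56. Without replicate 2 the mean was -0.11, so that BAD has no settled direction.

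**Figure D2:**
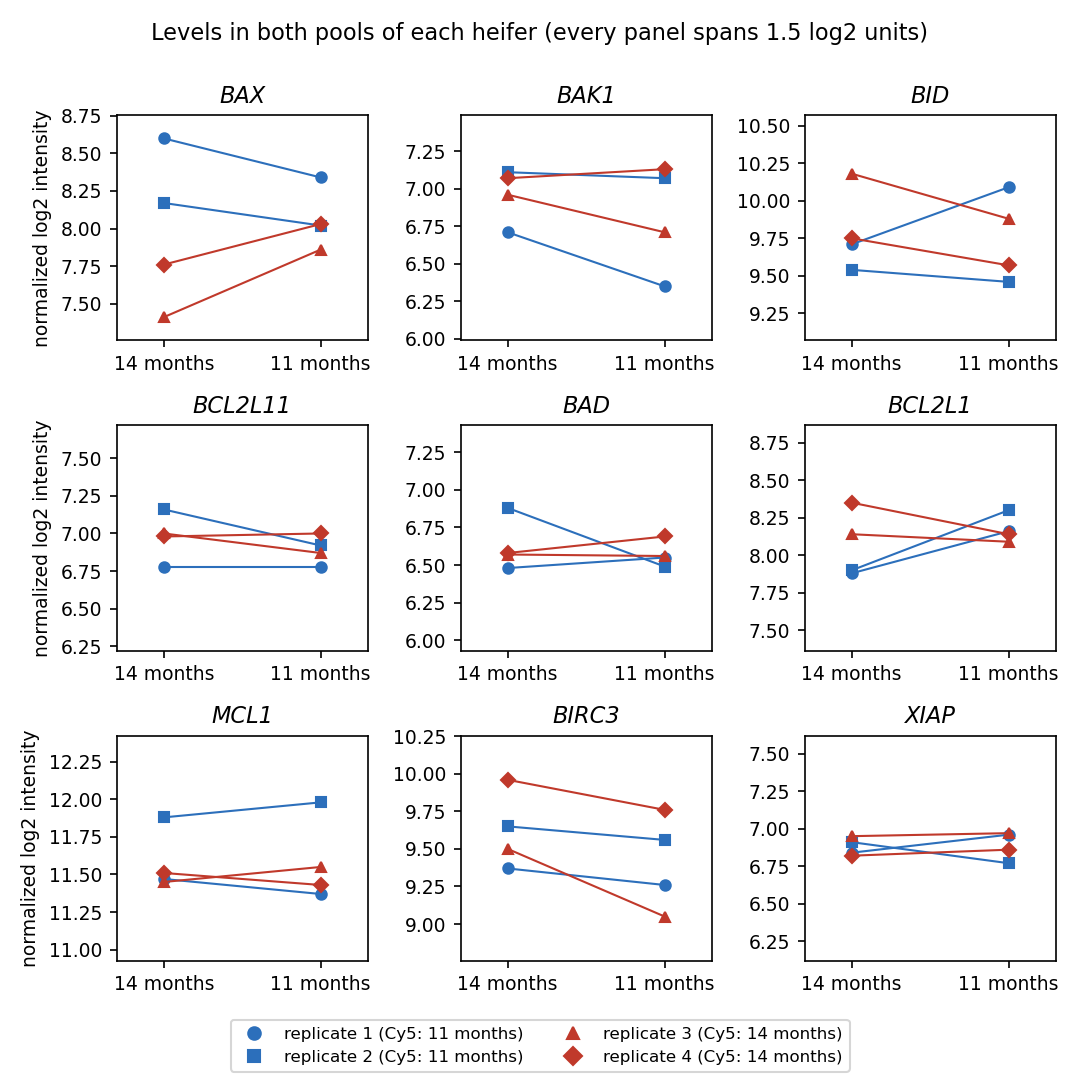
Normalized log2 intensity (y axis) in the 14-month and the 11-month pool of each heifer for the brightest probe of each of the 9 genes. Lines join the pools of 1 heifer, colour gives the age carried by Cy5, and all panels span the same range. BAX lines slope one way in blue and the other way in red, and MCL1 is highest in replicate 2 at both ages.

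The anti-apoptotic members had several probes each, and the ratios differed between probes of the same gene. The brightest BCL2L1 probe (EMBV3_06599) was at 7.88, 7.90, 8.14 and 8.35 in the 14-month pools, against 8.16, 8.30, 8.09 and 8.14 in the 11-month pools. Its ratios, in order of replicate, were -0.33, -0.50, 0.07 and 0.22, the reverse of the pattern of BAX. The mean was -0.13 ± 0.34 (SD, n = 4), with a limma adjusted p of 0.868. The second probe (EMBV3_12898) was at 6.96, 7.62, 7.39 and 7.40 at 14 months, against 7.65, 7.74, 7.55 and 7.33 at 11 months. It was lower at 14 months in 3 of 4 heifers, most of all in replicate 1. It had ratios of -0.79, -0.21, -0.21 and 0.07, a mean of -0.28 ± 0.36 and a 95% interval of -0.64 to 0.07. With an unadjusted p of 0.104 and an adjusted p of 0.654 in limma it was the member probe with the smallest p. Without replicate 4 it was the single one of the 13 member probes at an unadjusted p under 0.05, at -0.40 with an adjusted p of 0.466. In that refit 3851 of all 36447 tested probes had such a p. Without replicate 1 this BCL2L1 probe was at -0.11. The third probe (EMBV3_29163) had ratios of 0.27, 0.02, -0.46 and 0.02 and a mean of -0.04 ± 0.30, so that in replicate 1 the 3 probes of this gene spanned -0.79 to 0.27. Which BCL2L1 transcripts each probe reads was not analysed here.

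MCL1, a short-lived protective protein whose loss is lethal to the mouse embryo around implantation, had the steadiest ratio of the members on its brightest probe (EMBV3_08035). The levels were 11.47, 11.88, 11.45 and 11.51 at 14 months, against 11.37, 11.98, 11.55 and 11.43 at 11 months. Replicate 2 was highest at both ages and the remaining 6 pools lay within 11.37 to 11.55, so that heifers differed more than ages. The ratios were 0.01, -0.06, 0.02 and 0.06, with a mean of 0.01 ± 0.05 (SD, n = 4), a 95% interval of -0.26 to 0.27 and a limma adjusted p of 0.996. The interval is wider than this SD because limma moderates the variance of each probe towards that of all probes. The second probe (EMBV3_00650) had ratios of -0.37, -0.33, 0.09 and 0.00, a mean of -0.15 ± 0.23, and the third (EMBV3_02075) ratios of -0.15, 0.23, 0.13 and -0.19, a mean of 0.00 ± 0.21. The direction for MCL1 is therefore not settled either: the mean over its 3 probes was -0.05.

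Of the inhibitors of apoptosis, BIRC3 was the member with the largest positive mean. Its level was 9.37, 9.65, 9.50 and 9.96 in the 14-month pools, against 9.26, 9.56, 9.05 and 9.76 in the 11-month pools. In each of the 4 heifers the 14-month pool was higher, although the ranges of the ages overlapped, with an SD between heifers of 0.25 at 14 months and 0.31 at 11 months. The ratios were 0.05, 0.04, 0.50 and 0.21, a mean of 0.20 ± 0.22 (SD, n = 4) or 1.15-fold. The 95% interval ran from -0.10 to 0.50, and in limma the unadjusted p was 0.161 and the adjusted p 0.720. Replicates 3 and 4 gave a mean of 0.36 and replicates 1 and 2 one of 0.05, so that most of it came from the arrays with Cy5 on the 14-month pool. With mean in place of median spot signals BIRC3 was the single one of the 13 member probes at an unadjusted p under 0.05. In that refit 4069 of all 36447 tested probes had such a p. XIAP was at 6.84, 6.91, 6.95 and 6.82 at 14 months, against 6.96, 6.77, 6.97 and 6.86 at 11 months. These 8 levels were the closest together of any member probe, and the mean ratio was -0.03 ± 0.14 (SD, n = 4; limma adjusted p 0.970).

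The shift of BAX relative to a protective gene was computed for each heifer as the difference of their log2 ratios, by the brightest probe of each gene. These pairs were chosen after the values were seen and carry no test. BAX minus BCL2L1 was 0.55, 0.57, -0.57 and -0.62 in replicates 1 to 4, a mean of -0.02 ± 0.67. For this BCL2L1 probe the sizes were alike in all 4 heifers and the signs followed the dye orientation. The dimmer BCL2L1 probes, with ratios of -0.79, -0.21, -0.21 and 0.07 and of 0.27, 0.02, -0.46 and 0.02, were not set against BAX. BAX minus MCL1 was 0.21, 0.14, -0.51 and -0.46, with a mean of -0.16 ± 0.38. BAX minus BCL2 was -0.35, 0.13, 0.02 and -0.07, with a mean of -0.07 ± 0.21, from a BCL2 probe above the controls in 3 of 4 pools at each age. BAK1 minus BCL2L1 was 0.72, 0.51, 0.23 and -0.40, with a mean of 0.27 ± 0.48, and BAK1 minus MCL1 had a mean of 0.13 ± 0.27. The BAK1 probe, like that of BCL2, was above the controls in 3 of 4 pools at each age. For each of the 5 pairs the mean was smaller than the SD over heifers.

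Dye orientation was set against the members because arrays of 1 orientation resembled each other. Over all tested probes, whose values are not independent of each other, Pearson's r was 0.56 for the arrays with Cy3 on the 14-month pool and 0.31 for those with Cy5 on it, and -0.17 to 0.12 for arrays of opposite orientation. The means of replicates 1 and 2 and of replicates 3 and 4 had opposite signs for 9 of the 13 member probes, against 55.7% of all probes. They were 0.14 and -0.45 for BAX, -0.42 and 0.15 for the brightest BCL2L1 probe and -0.22 and 0.29 for BID. In a limma fit with a term for orientation, that term had an unadjusted p under 0.05 for 2 of the 13 probes, against 22.4% of all probes. These were BAX, at an unadjusted p of 0.0189 and an adjusted p of 0.144, and the brightest BCL2L1 probe, at 0.0247 and 0.163. The orientation term compares different heifers, so that dye and heifer cannot be told apart. For age, the same fit passed an adjusted p of 0.05 for 0 of 13 member probes, the lowest adjusted p being 0.305, and for 1.02% of all probes.

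**Figure D3:**
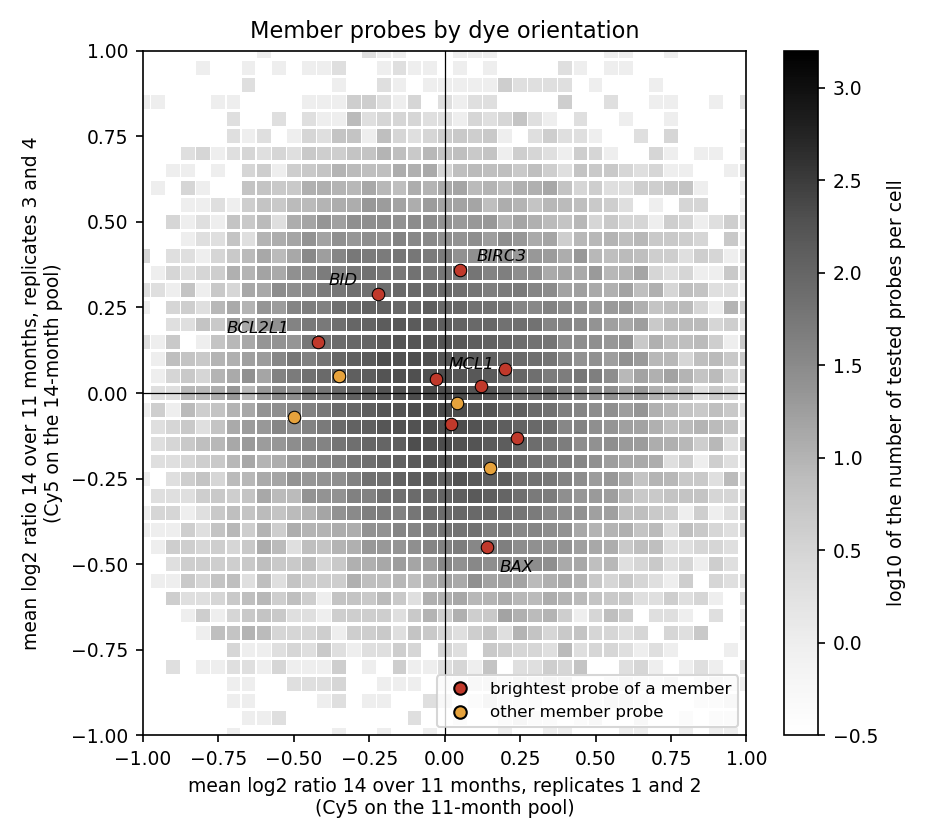
Mean log2 ratio of 14 over 11 months in replicates 1 and 2 (x axis) and in replicates 3 and 4 (y axis). Grey squares give the number of tested probes on a log10 scale, red points the brightest probe of each member and orange points the other member probes. BAX and the brightest BCL2L1 probe lie in opposite quadrants, and BIRC3 lies at 0.05 and 0.36. The dimmer BCL2L1 probes lie at -0.50 and -0.07 and at 0.15 and -0.22, the latter in the quadrant of BAX.

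Other genes of the apoptotic machinery were set beside the members, as 6 lists with 65 genes, of which 51 had a tested probe. By the brightest probe of each gene, 1 was higher and 2 were lower at 14 months at an unadjusted p under 0.05, against 4.21% of all 13519 named genes higher and 5.13% lower, and 0 passed an adjusted p of 0.05. The median log2 ratio was -0.05 over the 51 genes, 0.03 over the 9 members and -0.02 over all named genes. In bulk pools a smaller share of cells of a type and less RNA per cell cannot be told apart. Chosen by their p, the 3 genes below are described without further support.

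BNIP3, a mitochondrial BH3-like protein best known for mitophagy under low oxygen, was at 12.09, 12.03, 11.93 and 11.65 in the 14-month pools, against 11.62, 10.25, 11.40 and 11.74 in the 11-month pools. The 11-month pool of replicate 2 was the lowest by a wide margin, and replicate 4 ran the other way. The ratios were 0.43, 1.79, 0.64 and -0.12. Their mean was 0.68 ± 0.80 (SD, n = 4), with an unadjusted p of 0.0276 and an adjusted p of 0.472 in limma, and it was 0.31 without replicate 2. BOK, a BAX-like member of the family, was at 9.57, 10.28, 9.57 and 10.34 at 14 months, against 10.72, 10.33, 10.17 and 10.44 at 11 months. It was lower at 14 months in all 4 heifers, at -0.48 ± 0.54 (SD, n = 4; limma adjusted p 0.496), of which replicate 1 gave -1.24; without replicate 1 the mean was -0.23. YWHAZ, a 14-3-3 protein that retains phosphorylated BAD in the cytosol, was at 8.12, 7.71, 7.19 and 7.75 at 14 months, against 8.03, 8.25, 8.18 and 7.86 at 11 months. It was lower at 14 months in 3 of 4 heifers, at -0.47 ± 0.53 (SD, n = 4; limma adjusted p 0.497), or -0.26 without replicate 3.

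By the brightest probe, each of the remaining genes had a mean nearer 0 than these 3. Among the other anti-apoptotic BCL2 proteins, 3 of 4 were tested and 0 had an unadjusted p under 0.05; BCL2L2 was at -0.08 ± 0.22 and BCL2A1 at 0.07 ± 0.22, and the dimmer BCL2L2 probes were at -0.09 and -0.17. Of the other pro-apoptotic or divergent family members 7 of 12 were tested, and BNIP3 and BOK were the 2 with an unadjusted p under 0.05. Of the other BIR proteins and IAP antagonists 6 of 7 were tested and 0 had such a p. BIRC5 (survivin), which also serves in chromosome segregation, was at -0.31 ± 0.43 on its brightest probe, or -0.17 without replicate 1 and -0.48 without replicate 3, and at 0.00 ± 0.32 on the other. BIRC6 was at 0.16 ± 0.16 on its brightest probe, while its dimmer probe was at -0.33 ± 0.18 with an unadjusted p of 0.0297, so that its direction is not settled.

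In the list of the apoptosome, caspases and the apoptotic nuclease, 10 of 12 genes were tested, 8 had a negative mean, against 53.9% of all named genes, 0 had such a p, and the median was -0.12. CASP9, the initiator caspase of the mitochondrial pathway, was at -0.44 ± 0.66 on its brightest probe, from -0.72, -1.03, -0.49 and 0.50, and its other probes were at 0.19 and 0.15. Without 1 replicate the brightest probe was at -0.75 to -0.24, the first without replicate 4 and the last without replicate 2. DFFB, the nuclease that fragments DNA, was at -0.25 ± 0.23 and negative in all 4 heifers. In the death receptor pathway 10 of 15 genes were tested and 0 had such a p; the adaptors FADD and TRADD were at -0.37 ± 0.56 and 0.29 ± 0.34. Without 1 replicate FADD was at -0.58 to -0.16, the last without replicate 3, and TRADD was at 0.12 without replicate 2. FADD had a mean of 0.07 in replicates 1 and 2 and of -0.82 in replicates 3 and 4. Of 15 partners and turnover factors of BCL2 proteins all were tested, 1 had such a p, YWHAZ, and the median was -0.12. Of the 17 dimmer probes tested over the 6 lists 3 (17.6%) had such a p, against 9.2% of all tested probes. They were that of BIRC6 and 2 of this list, and 0 passed an adjusted p of 0.05. The 14-3-3 gene YWHAE was at -0.63 ± 0.50 on one dimmer probe (limma unadjusted p 0.00788, adjusted p 0.372), at -0.26 ± 0.76 on another and at 0.20 ± 0.42 on its brightest. BAG1, a co-chaperone that binds BCL2, was at -0.44 ± 0.32 on its dimmer probe (limma unadjusted p 0.0162, adjusted p 0.425) and at -0.17 ± 0.33 on its brightest.

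**Figure D4:**
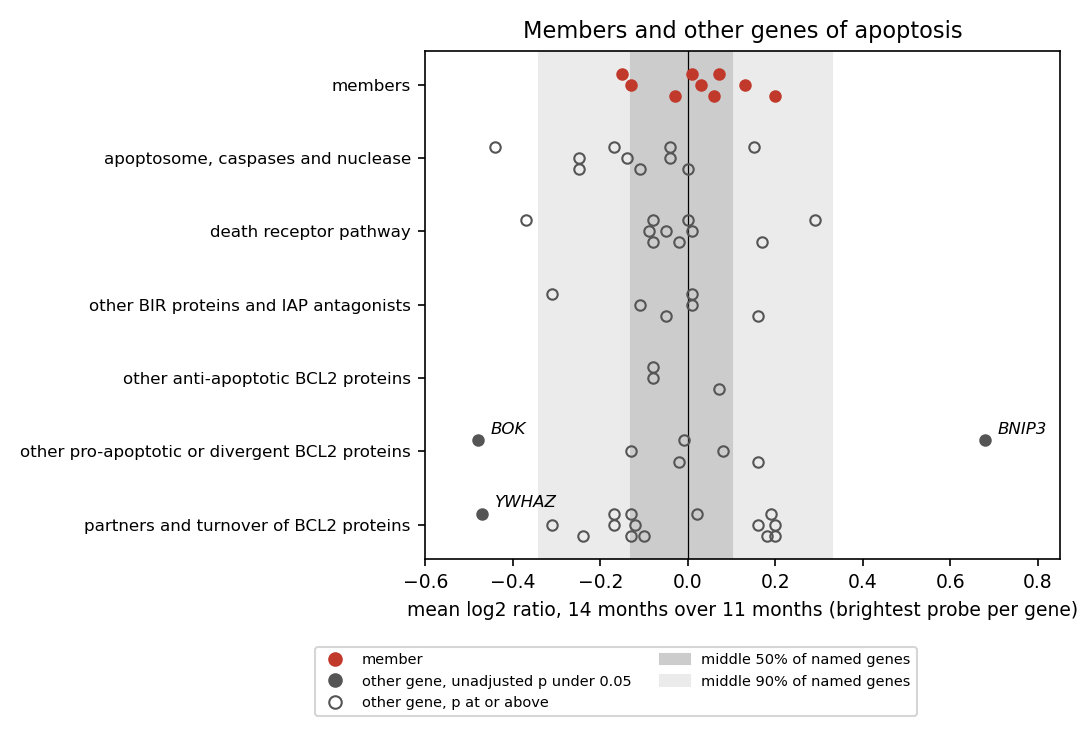
Mean log2 ratio of 14 over 11 months (x axis) by the brightest probe of each gene, for the 9 members and 6 other lists (rows). The shaded bands run between the 25% and 75% and between the 5% and 95% quantiles of all named genes. All 9 members lie between -0.15 and 0.20, inside the wider band of -0.34 to 0.33.

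The pools carried the transcripts of blastocysts. Of 10 tested trophectoderm genes 9, and of 6 inner cell mass genes all, lay above the negative controls in all 8 pools, against 67.5% of all named genes. By the brightest probe, 1 of 10 trophectoderm genes (AQP3) and 1 of 6 inner cell mass genes (NANOG) had an unadjusted p under 0.05. Both were lower at 14 months, against 5.13% of all named genes lower and 4.21% higher at such a p. AQP3, a water channel of the trophectoderm, was at -0.60 ± 0.33 (limma adjusted p 0.348), while its dimmer probe was at -0.12 ± 0.66 (limma adjusted p 0.929). Of the 10 trophectoderm genes 3 had a positive and 7 a negative mean, with a median of -0.11, where 53.9% of all named genes had a negative mean. The pluripotency factor NANOG was at -1.12 ± 0.37 and lower at 14 months in all 4 heifers (limma adjusted p 0.328, or 0.024 with the orientation term). The other 5 inner cell mass genes had means of -0.10 for LIN28A, -0.04 for POU5F1, -0.03 for SPIC, -0.02 for KLF4 and 0.30 for SOX2. Of 10 tested cumulus and granulosa genes 6 lay above the negative controls in all 8 pools, against 67.5% of all named genes. Of 5 sperm genes 0 did, and of 4 leukocyte genes 2. The summed intensities of the 10 cumulus and granulosa genes were 1710 to 2080 in the 14-month pools and 1650 to 2220 in the 11-month pools. VCAN was the gene of these 3 lists with an unadjusted p under 0.05, where 4.21% of all named genes were higher and 5.13% lower. It was at 0.31 ± 0.14 and higher at 14 months in all 4 heifers (limma adjusted p 0.486). VCAN lay above the controls in 3 of 4 pools at 14 months, and none of its 11-month signals was well above background. Its part in the values of the members was not tested.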

How the data were processed

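Total RNA of each pool went through 2 rounds of linear amplification before Cy3 or Cy5 labelling, per the labels' protocols. The deposited scanner files give the intensity of each spot and its local background in both channels, uncorrected, per the file headers. The authors also deposited normalized log2 ratios as a table of Cy5 over Cy3 and as a series matrix of 11 over 14 months. The 2 tables held the same values within 5e-06 after turning replicates 3 and 4. Direction was checked against the scanner values, with which the deposited ratios correlated at r = 0.914 to 0.989 (slopes 1.07 to 1.39). The column medians of the matrix were 0.00853, 0.00336, 0.00104 and 0.0234. The sources used here do not name the authors' background correction or centring.

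Matrix ratios were turned to 14 over 11 months and fitted with limma 3.58.1 in R 4.3.3 (lmFit and eBayes, 1 coefficient, 3 residual and 5.98 prior degrees of freedom), two-sided, with Benjamini-Hochberg adjustment over 36447 probes. The ratio pairs the ages within a heifer, and the 4 replicates were different animals. An exact sign-flip test of 4 heifers cannot go below 0.125. The filter left out 7347 of 43794 probes whose mean log2 intensity did not exceed a limit set 2 SD over the mean of the 153 negative controls. Levels came from median signals after normexp (offset 50), loess with weight 0 for 1426 control and blank spots, and Aquantile scaling. The same limit per channel set which pools were above the controls. No spot was saturated, and 0 spots of member probes were marked as ignored by the image software.

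Symbols came from GEO's platform annotation (21790 probes with 1 symbol, 0 with several, 22004 with none); 1524 were updated through a synonym of the ARS-UCD2.0 gene table, 20025 were current and 241 kept an old name. A gene was represented by its brightest probe. All members, companion genes at an unadjusted p under 0.05 and otherwise the 2 smallest p of a list were named; BCL2, the marker genes and second probes were added after values were seen. Members and lists were chosen with earlier results of these data known. The fit was tested on simulated ratios. Plots used Python 3.11.15 and matplotlib 3.10.9.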

Additional observations from a re-analysis of the deposited data

Results flagged for a closer look

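Across 24 probes of named genes, the ratios and the levels at each age were searched for 1 heifer far from the other 3, in 72 groups of 4 values. In 1 group the gap exceeded Dixon's 95% limit, which chance exceeds in about 1 of 20 groups: the level of the brightest MCL1 probe in the 14-month pool of replicate 2 was 11.88, against 11.45 to 11.51 in the other 14-month pools. The 11-month pool of the same heifer was also the highest, at 11.98, so that the ratio of this heifer, -0.06, did not stand apart.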

How the results depend on the processing

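In the 13 refits, 0 member probes passed an adjusted p of 0.05, and the count of member probes at an unadjusted p under 0.05 was 0 or 1 (without 1 replicate, 0 to 1). It was 1 of 13 with mean foreground signals (BIRC3), where 4069 of all 36447 probes had such a p. It was also 1 without replicate 4 (BCL2L1), where 3851 of all 36447 did. Over all probes 0 passed an adjusted p of 0.05, except 373 with a gene-specific dye term; without 1 replicate the count was 0 to 0. The 3352 probes at an unadjusted p under 0.05 (55.5% of them higher at 14 months) became 6025 with the dye term. Without 1 replicate they became 1637 to 3851, the lowest without replicate 2. Scanner ratios with normexp and loess gave 3448, of which 60.9% were higher at 14 months. Against these 3448, scanner ratios with median centring gave 2050. Channels of the scanner files compared unpaired, without the replicate block, gave 2062, of which 74.6% were higher at 14 months. The 3 companion genes became 5 with mean foreground signals, 1 with median centring, 7 with the dye term and 2 to 6 without 1 replicate, the 6 without replicate 4. The replicate block is the array itself, and leaving it out changed no call of a member.

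Signs of small ratios changed. The brightest MCL1 probe was at -0.01 with scanner ratios (normexp and loess) and without the replicate block, and 0.00 with background subtraction or none. It was at -0.02 with mean foreground signals and -0.01 to 0.03 without 1 replicate. The mean over all 3 MCL1 probes, which is no refit of the brightest, was -0.05. The third MCL1 probe was at -0.02 with mean foreground signals and -0.07 to 0.07 without 1 replicate. The third BCL2L1 probe was at 0.00 with scanner ratios and without the replicate block, 0.09 with mean foreground signals, 0.01 with median centring, and -0.14 to 0.10 without 1 replicate. With mean foreground signals BCL2A1 was at -0.10 and BCL2L2 at 0.11. Without 1 replicate BAD was at -0.11 to 0.16, BID at -0.08 to 0.20 and BCL2L2 at -0.14 to 0.02. BAX, BAK1, BCL2L11, BIRC3, XIAP and the brightest BCL2L1 probe kept their sign in these refits. Without 1 replicate BAX was at -0.27 to -0.04 (the last without replicate 3), BCL2L1 at -0.25 to -0.01 (without replicate 2), BAK1 at 0.05 (without replicate 1) to 0.24, BCL2L11 at 0.01 (without replicate 2) to 0.12, BIRC3 at 0.10 (without replicate 3) to 0.26 and XIAP at -0.10 (without replicate 2) to 0.00. Within 1 dye orientation BAX was at 0.14, BCL2L1 at 0.15 and XIAP at 0.02. The cause of these changes was not tested. BAK1 and BAD were left out by a filter for probes above the controls in all 8 channels. The number of arrays, 4, limits the precision, and BAD and BAK1 had signals near background.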
